A study of Mus musculus with 12 samples.

Results

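Epha5, Epha7, Ephb1 and Ephb3, which encode Eph receptors, were followed in sorted cells of the postnatal day 7 mouse spinal cord. The 4 genes were taken by name from the authors' deposited tables, and they were selected on measured values, their differences between astrocytes and non-astrocytes and between dorsal and ventral astrocytes. Each had a single probe set (10530870 for Epha5, 10503659 for Epha7, 10596095 for Ephb1 and 10434559 for Ephb3), so that they were measured by 4 probe sets among 28467 tested, and they were 4 of 4575 genes with a known name. RNA was measured on 12 arrays in 4 groups of 3 biological replicates, with astrocytes of the dorsal and of the ventral cord and, from each of these regions, the non-astrocytes. All cells came from mice of Swiss-Webster background that carry an Aldh1l1-GFP transgene, in which the promoter of Aldh1l1, a gene of folate metabolism used as an astrocyte marker, drives green fluorescent protein. Cords were dissociated with papain and flow sorted, the GFP-positive cells giving the astrocytes and the GFP-negative cells the non-astrocytes, a mixture of every other cell of the cord and of any astrocyte without GFP. The sources used here do not state how many animals were pooled. A further label field reads GFP-positive for all 12 samples, and the groups were therefore taken from the titles. These were borne out by Aldh1l1 itself, with a mean log2 signal of 9.65 in dorsal and 9.32 in ventral astrocytes, against 5.95 in dorsal and 5.82 in ventral non-astrocytes.

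Eph receptors are receptor tyrosine kinases whose ligands, the ephrins, sit on the membrane of the neighbouring cell. Binding at cell contact can signal into either cell and often makes a growing axon or migrating cell retract. Receptors of the A class, such as Epha5 and Epha7, mainly bind ephrins anchored to the membrane by a lipid, and those of the B class, such as Ephb1 and Ephb3, mainly bind ephrins that span it. In the developing cord the family is known for sorting axons of motor neurons toward their targets and for guiding axons of the corticospinal tract and dorsal horn.

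The promoter windows of Epha5 and Ephb1 are shown because Epha5 had the largest regional difference in astrocytes of the 4 genes and Ephb1 the largest difference between the sorts when averaged over both regions. Each window runs 5′ to 3′ along its gene from 250 bases before to 50 bases after a start annotated by RefSeq in GRCm38.p6. Capitals mark GC boxes, the letters GGGCGG or CCGCCC.
Epha5, chr5:84417333-84417632, minus strand: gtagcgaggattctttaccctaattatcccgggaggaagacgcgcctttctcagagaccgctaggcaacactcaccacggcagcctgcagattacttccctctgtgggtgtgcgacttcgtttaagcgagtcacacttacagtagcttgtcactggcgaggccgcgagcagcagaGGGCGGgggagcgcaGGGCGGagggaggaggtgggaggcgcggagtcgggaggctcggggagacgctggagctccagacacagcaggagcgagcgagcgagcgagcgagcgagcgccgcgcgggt
Ephb1, chr9:102354644-102354943, minus strand: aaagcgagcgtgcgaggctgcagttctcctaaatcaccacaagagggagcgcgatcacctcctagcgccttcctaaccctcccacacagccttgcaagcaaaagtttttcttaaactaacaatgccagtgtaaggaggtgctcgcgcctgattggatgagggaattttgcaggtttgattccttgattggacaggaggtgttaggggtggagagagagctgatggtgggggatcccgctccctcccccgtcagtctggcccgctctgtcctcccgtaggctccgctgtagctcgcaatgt
The Epha5 window held 2 GC boxes, 30 CpG pairs and 64.3% G and C, whereas that of Ephb1 held 0 GC boxes, 14 CpG pairs and 55.7% G and C. The window of Ephb3 (chr16:21204545-21204844, plus strand) held 2 GC boxes and each of the 2 overlapping windows of Epha7 (the first at chr4:28812881-28813180, plus strand) held 1. Of 32851 such windows 35.7% held a GC box, and the median was 7 CpG pairs and 52.7% G and C. The letters TATAAA, searched on both strands, were in none of the members' windows and in 13.6% of all windows, and the letters CANNTG, an E-box, were in the window of Ephb3 alone of the 4 genes, against 72.3% of all windows. These matches describe letters in a window and do not bear on which factor binds there.

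The values below are the authors' RMA signals per probe set on a log2 scale, so that a difference of 1 is a factor of 2. The array medians lay between 6.57 and 6.62. The members were chosen with their difference between dorsal and ventral astrocytes known, and a gene has a name here mainly because the authors listed it in their comparison of astrocytes with non-astrocytes. Both of these differences are therefore given for the members as a description, with no test, and the comparison of dorsal with ventral non-astrocytes, which did not choose the members, is tested. In such sorted but mixed samples, more cells with a transcript and more transcript per cell cannot be told apart. Levels of different genes are not set against each other, since each probe set has its own response.

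Epha5 stood out in ventral astrocytes. Its log2 signal was 7.13, 7.45 and 7.13 in dorsal astrocytes of replicates 1 to 3, against 8.87, 9.21 and 8.88 in ventral astrocytes. In dorsal non-astrocytes it was 7.04, 6.70 and 6.88, against 6.48, 6.82 and 6.74 in ventral non-astrocytes. Every ventral astrocyte array was above every other array, while the 9 others lay between 6.48 and 7.45. The order of the group means was ventral astrocytes (8.98 ± 0.19), dorsal astrocytes (7.24 ± 0.19), then dorsal non-astrocytes (6.87 ± 0.17), and last ventral non-astrocytes (6.68 ± 0.17; SD, n = 3 each). The ranges of the last pair overlapped, and those of the other neighbours did not.

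Dorsal minus ventral astrocytes, Epha5 had a log2 difference of -1.75 (SE 0.14), which is 3.36-fold more signal in ventral astrocytes and ranked 8 by size among the 28467 probe sets. Within replicates of the same number the difference was -1.74, -1.76 and -1.75. The level itself was highest in replicate 2 of each astrocyte group, and the difference between the regions was nearly the same in every replicate. Between the sorts, ventral astrocytes exceeded ventral non-astrocytes by 2.303 (SE 0.14), a 4.93-fold difference, and dorsal astrocytes exceeded dorsal non-astrocytes by 0.36 (SE 0.14), a 1.29-fold difference. The mean astrocyte excess of 1.33 thus averaged unequal values of the regions. In ventral non-astrocytes between 46.3% and 55.4% of probe sets on an array had less signal than Epha5, and in dorsal ones between 52.2% and 60.3%.

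Epha7, the other A-class member, was higher in astrocytes of each region. Its log2 signal was 7.79, 7.83 and 7.74 in dorsal astrocytes, against 8.20, 7.97 and 8.296 in ventral astrocytes. It was 7.24, 7.28 and 7.19 in dorsal non-astrocytes, against 7.00, 6.99 and 7.05 in ventral non-astrocytes. None of the 4 groups overlapped with another, and their order was that of Epha5. Dorsal minus ventral, the difference was -0.37 (SE 0.09) in astrocytes and 0.22 (SE 0.09) in non-astrocytes, so that ventral cells were higher in the astrocyte sort and lower in the other. Astrocytes minus non-astrocytes, it was 0.56 (SE 0.09) in the dorsal and 1.14 (SE 0.09) in the ventral cord. Ventral astrocytes of replicate 2 were closest to the dorsal ones, and without that array the regional difference in astrocytes was -0.46.

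Ephb1 had its highest signal outside the astrocytes. Its log2 signal was 6.04, 6.12 and 6.14 in dorsal astrocytes, against 6.66, 6.55 and 6.47 in ventral astrocytes. It was 8.299, 7.98 and 8.07 in dorsal non-astrocytes, against 8.49, 8.45 and 8.29 in ventral non-astrocytes. All 6 astrocyte arrays were below all 6 non-astrocyte arrays. The order of the group means was ventral non-astrocytes (8.41 ± 0.11), dorsal non-astrocytes (8.11 ± 0.17), ventral astrocytes (6.56 ± 0.09) and dorsal astrocytes (6.10 ± 0.05; SD, n = 3 each), and only the first pair overlapped. Astrocytes minus non-astrocytes, the log2 difference was -2.01 (SE 0.10) in the dorsal cord, 4.04-fold less signal in astrocytes, and -1.85 (SE 0.10) in the ventral cord, 3.61-fold less. Dorsal minus ventral astrocytes, it was -0.46 (SE 0.10). In dorsal astrocytes between 36.9% and 38.9% of probe sets on an array had less signal, and in ventral astrocytes between 46.9% and 50.9%, so the astrocyte values lay near or under the array medians.

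Ephb3, the other B-class member, was higher in astrocytes and highest in dorsal ones. Its log2 signal was 7.66, 7.51 and 7.37 in dorsal astrocytes, against 7.304, 7.19 and 7.26 in ventral astrocytes. It was 6.44, 6.51 and 6.28 in dorsal non-astrocytes, against 6.40, 6.36 and 6.54 in ventral non-astrocytes. The astrocyte groups overlapped neither with each other nor with the non-astrocytes, whose 2 groups overlapped. The gap between the lowest dorsal and the highest ventral astrocyte array was small, 7.37 against 7.304. Dorsal minus ventral astrocytes, the difference was 0.26 (SE 0.10), a 1.20-fold excess of the dorsal ones. Astrocytes minus non-astrocytes, it was 1.11 (SE 0.10) in the dorsal and 0.82 (SE 0.10) in the ventral cord. In non-astrocytes between 41.1% and 48.2% of probe sets on an array had less signal than Ephb3.

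**Figure D1:**
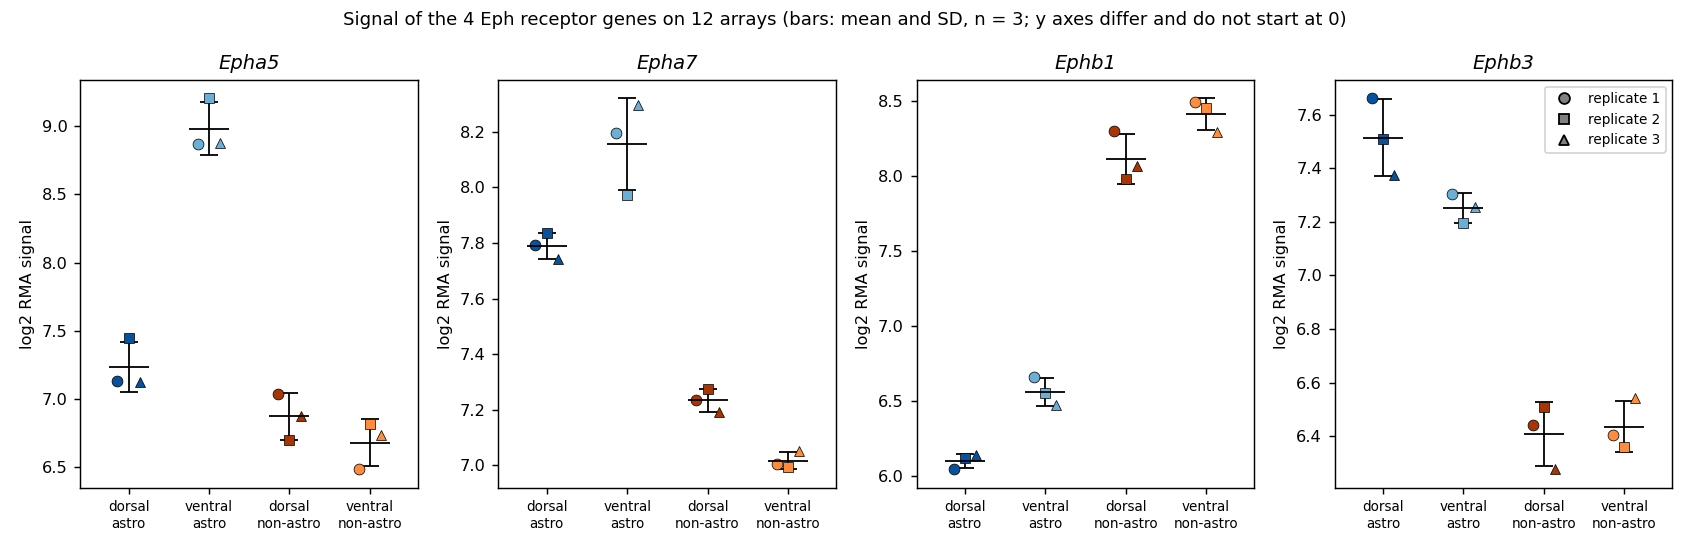
Log2 RMA signal of Epha5, Epha7, Ephb1 and Ephb3 (y axes, one scale per gene) on each of the 12 arrays in the 4 groups (x axis), with the mean and SD of each group of 3. Epha5 is near 9 in ventral astrocytes and at most 7.45 elsewhere, and Ephb1 is at most 6.66 in astrocytes and at least 7.98 in non-astrocytes.

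The 4 members thus differed in where their signal was highest: Epha5 and Epha7 in ventral astrocytes, Ephb3 in dorsal astrocytes and Ephb1 in ventral non-astrocytes. In 4 of 4 the dorsal and ventral astrocyte arrays did not overlap, which was so for 12.5% of all probe sets, but this is a comparison on which they were chosen. Across all probe sets limma called 97 (0.341%) between dorsal and ventral astrocytes. Astrocytes and non-astrocytes did not overlap in 4 of 4, against 22.3% of all probe sets, and limma called 36.2% of all probe sets in that comparison. Since 5098 of the 5116 named probe sets were called there, such a count says nothing particular of any named gene.

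The regional difference in non-astrocytes asked whether the receptors also differed between dorsal and ventral cord outside the GFP-positive cells. With limma, 0 of the 4 members passed an adjusted p of 0.05, and 2 had an unadjusted p under 0.05, against 14 of 28467 probe sets passing (0.0492%) and 5.25% at the unadjusted p. With the replicate number as a block the first of these counts over all probe sets was 0 in place of 14, and it ran from 0 to 31 when 1 array was left out. Under each of these settings 0 of the 4 members passed. Dorsal minus ventral, Ephb1 had a log2 difference of -0.30 (95% interval -0.51 to -0.08, limma adjusted p = 0.63), with replicate differences of -0.19, -0.47 and -0.22. Epha7 had 0.22 (95% interval 0.02 to 0.41, limma adjusted p = 0.86), with replicate differences of 0.23, 0.28 and 0.14. It was the 1 member of 4 whose dorsal and ventral non-astrocytes did not overlap, with the dorsal arrays higher, as was so for 5.73% of all probe sets. Epha5 had 0.19 (95% interval -0.10 to 0.49, limma adjusted p = 1.00), with replicate differences of 0.55, -0.12 and 0.14. Ephb3 had -0.03 (95% interval -0.24 to 0.19, limma adjusted p = 1.00). Cell-type markers also differed in level between these groups. Microglia markers were higher dorsally in 12 of 12 (median dorsal minus ventral 0.47), the direction of Epha7. Myelin markers were higher ventrally in 12 of 12 (median -0.28), the direction of Ephb1. Other lists also went each way. Dorsal horn neuron markers were higher dorsally in 3 of 3 (median 0.37), precursor markers in 6 of 9 (0.11) and pan-neuronal markers in 4 of 7 (0.06). Astrocyte markers were higher ventrally in 10 of 14 (median -0.27) and endothelial markers in 4 of 5 (-0.25). In each of these lists 0 were called. The part of these cell types in the members' values was not tested.

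**Figure D2:**
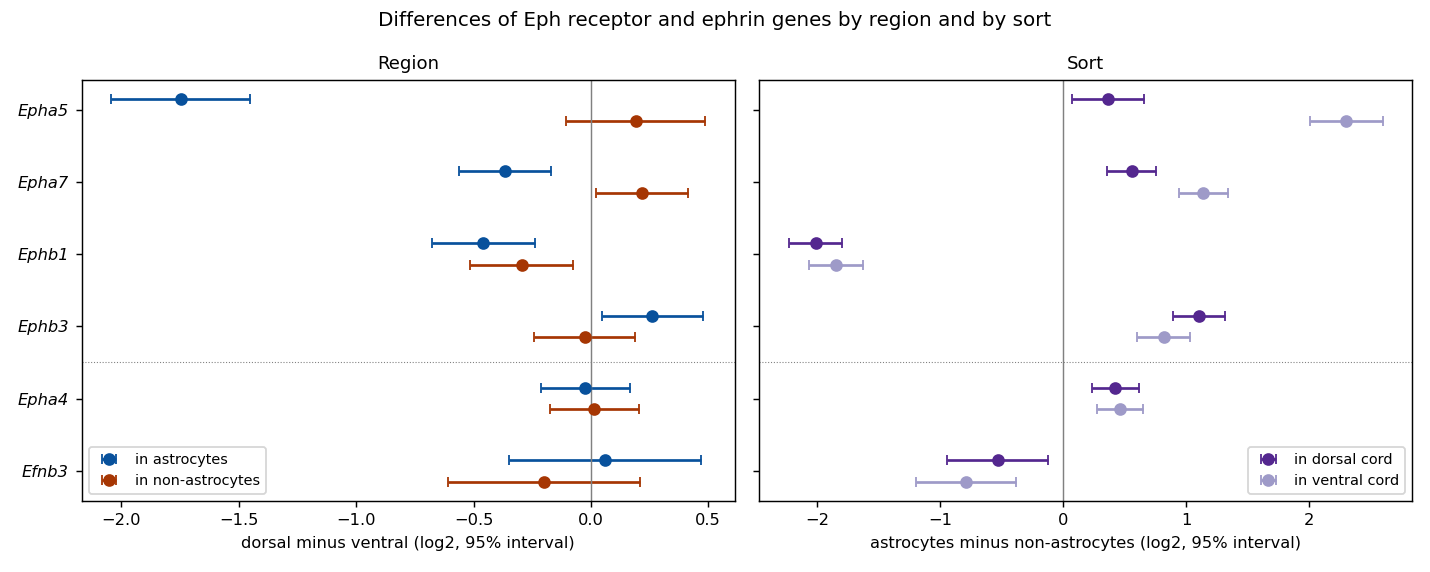
Log2 differences of the 4 members and, under the dotted line, of Epha4 and Efnb3 (rows), as dorsal minus ventral in each sort (left) and as astrocytes minus non-astrocytes in each region (right), with 95% intervals from limma over 12 arrays. Epha5 is at -1.75 in astrocytes and 0.19 in non-astrocytes on the left, and Ephb1 is the member below 0 on the right.

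Beside the members, the files named 1 further Eph receptor, Epha4, and 1 ephrin, Efnb3, of the 14 receptors and 8 ephrins of the family list, and the other 16 were not analysed here. Epha4, a receptor known for holding corticospinal and interneuron axons on their side of the midline, averaged 8.56 ± 0.06 in dorsal and 8.58 ± 0.10 in ventral astrocytes (SD, n = 3 each). It averaged 8.13 ± 0.09 in dorsal and 8.12 ± 0.05 in ventral non-astrocytes (SD, n = 3 each). Its dorsal minus ventral difference was -0.02 in astrocytes (95% interval -0.21 to 0.16, limma adjusted p = 0.95) and 0.01 in non-astrocytes (95% interval -0.17 to 0.20, limma adjusted p = 1.00). Efnb3, a transmembrane ephrin that acts as a midline barrier to such axons, averaged 7.77 ± 0.10 in dorsal and 7.71 ± 0.51 in ventral astrocytes, against 8.305 ± 0.11 in dorsal and 8.505 ± 0.07 in ventral non-astrocytes (SD, n = 3 each). Ventral astrocytes of replicates 1 to 3 had 7.85, 8.14 and 7.14, and the lowest of them was below every other array of the gene. Its dorsal minus ventral difference in astrocytes was 0.06 (95% interval -0.35 to 0.47, limma adjusted p = 0.945).

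Of 49 partners that act with or downstream of Eph receptors, 22 were named. Among them limma called 0 between dorsal and ventral astrocytes and 0 between dorsal and ventral non-astrocytes. Of all probe sets 0.341% and 0.0492% were called there, so that 0 is near the background. Of the 5116 named probe sets 24 were called higher and 38 lower in dorsal astrocytes, and 4 higher and 2 lower in dorsal non-astrocytes. In astrocytes their dorsal minus ventral log2 differences ran from -0.29 to 0.48, with a median of 0.02 against -0.02 over all probe sets. The 4 with the largest difference between the sorts, astrocytes minus non-astrocytes, were Pak1 at -2.27, Anks1b at -2.08, Chn1 at 1.97 and Ngef at 1.81. Chn1 encodes an inactivator of Rac that acts below Epha4, and Pak1 a kinase driven by Rac and Cdc42. Chn1 averaged 9.39 in astrocytes and 7.42 in non-astrocytes, and Ngef 8.299 in astrocytes and 6.49 in non-astrocytes. Of the 22, 12 were called higher and 10 lower in astrocytes than in non-astrocytes, against 2441 higher and 2657 lower of the 5116 named probe sets. Of 24 receptors of other guidance cues 15 were named, 9 of them higher and 6 lower in astrocytes, with 0 called between regions in either sort, again near the background, and dorsal minus ventral differences in astrocytes from -0.46 to 0.45. Between the sorts the largest of these were the plexin gene Plxnb3 at -1.86, the slit receptor gene Robo2 at 1.76, the neurotrophin receptor gene Ntrk3 at 1.74 and the netrin receptor gene Unc5c at -1.73. The unadjusted regional p-values of these lists are not summarised, since 10.4% of all probe sets had one under 0.05 in astrocytes.

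The sorts were described with marker lists, each summed as its mean log2 signal per array. Of the 5116 named probe sets 5098 were called between the sorts, so markers that did not differ there were mostly without a name. The lists therefore describe the sorts and do not test them. The 14 astrocyte markers lay between 10.87 and 11.10 in dorsal and between 10.91 and 11.07 in ventral astrocytes, against 6.97 to 7.10 in dorsal and 7.03 to 7.41 in ventral non-astrocytes. The 12 named markers of myelinating oligodendrocytes lay between 8.31 and 8.82 in dorsal and between 8.82 and 8.95 in ventral astrocytes, against 10.63 to 10.93 in dorsal and 10.99 to 11.18 in ventral non-astrocytes. The myelin gene Mog averaged 7.91 in dorsal and 8.06 in ventral astrocytes, against 10.54 in dorsal and 10.96 in ventral non-astrocytes. Whether a list was present or absent in a group was not called. The 5 named endothelial markers lay between 6.16 and 6.31 in dorsal and between 6.15 and 6.33 in ventral astrocytes, under the array medians.

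**Figure D3:**
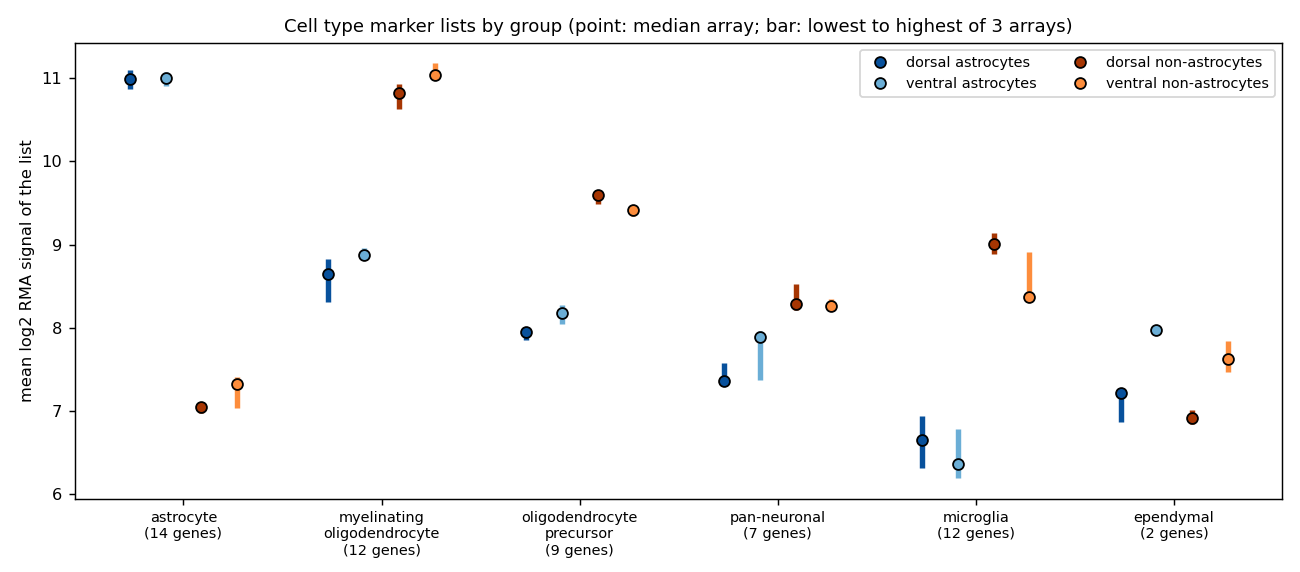
Mean log2 RMA signal of 6 marker lists (y axis) in the 4 groups, with the median array as a point and the lowest to highest of 3 arrays as a bar. Astrocyte markers are near 11 in the astrocyte arrays and at most 7.41 in the others, and the mean of the 2 ependymal genes is higher in the ventral cord in each sort.

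In astrocytes some marker lists had more signal in the ventral cord, as Epha5, Epha7 and Ephb1 did, and others in the dorsal cord, as Ephb3 did. Over all probe sets 15478 of 28467 were higher ventrally. Of the myelin markers 11 of 12 were higher ventrally (median dorsal minus ventral -0.26), of the 9 precursor markers 7 (median -0.28) and of the 7 pan-neuronal markers 5 (median -0.29), with 0 called by limma in each list, against 0.341% of all probe sets. Of the 12 microglia markers 8 were higher dorsally (median 0.17), also with 0 called, at 6.31 to 6.93 in dorsal and 6.19 to 6.78 in ventral astrocytes. Precursor markers lay between 7.86 and 8.01 in dorsal and between 8.05 and 8.28 in ventral astrocytes, and pan-neuronal markers between 7.304 and 7.57 in dorsal and between 7.37 and 7.96 in ventral astrocytes. Ephb1 was higher in ventral astrocytes and highest in the GFP-negative mixture that holds these cell types. In astrocytes it had the direction of the myelin, precursor and pan-neuronal lists and not that of the microglia list. The part of these cell types in its regional difference was not tested. The ependymal pair Dnah12 and Rarres2 lay between 6.87 and 7.22 in dorsal and between 7.92 and 7.99 in ventral astrocytes. In non-astrocytes this pair lay between 6.84 and 7.01 in the dorsal and between 7.47 and 7.85 in the ventral cord, while Epha5 averaged 6.87 in dorsal and 6.68 in ventral non-astrocytes. Rarres2 had a dorsal minus ventral difference of -0.23 in astrocytes and 0.03 in non-astrocytes, so that the pair's regional difference in non-astrocytes came from Dnah12. Dnah12, an axonemal dynein gene of motile cilia, fell by 1.49 on the log2 scale in dorsal against ventral astrocytes (limma adjusted p = 0.010). In non-astrocytes its dorsal minus ventral difference was -1.49 (limma adjusted p = 0.037), and with the replicate block it was not called. The part of ependymal RNA in the regional difference of Epha5 was not tested. Between the sorts the lists did not all run one way. All named markers of myelin, precursors and microglia were lower in astrocytes, and of the 7 pan-neuronal markers 5 were lower and 2 higher in astrocytes. Of 12 dorsal horn neuron markers 3 were named. They averaged 8.19 in dorsal and 8.14 in ventral astrocytes, against 7.22 in dorsal and 6.77 in ventral non-astrocytes. Of these 3, 2 were higher and 1 lower in astrocytes than in non-astrocytes. Between dorsal and ventral astrocytes limma called 1 of the 3, higher ventrally, against 0.341% of all probe sets. Of the 5116 named probe sets it called 24 higher dorsally and 38 higher ventrally. Of 11 motor and ventral neuron markers 2 were named, both higher in astrocytes. Their mean was 6.83 in dorsal and 7.20 in ventral astrocytes, against 6.42 in dorsal and 6.35 in ventral non-astrocytes, the group order of Epha5 and Epha7. The part of neuronal RNA in the values of Epha5, Epha7 and Ephb3 was not tested.

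Over the 12 arrays the named gene most alike to Epha5 was Sema3a, which encodes a secreted axon repellent, with a Pearson correlation of 0.98, followed by Fads2b (0.96) and P3h2 (0.95). Once the mean of each sort was subtracted, which leaves regional and replicate variation, the order was Sema3a (0.98), Fads2b (0.93) and Kcne1l (0.93). Sema3a averaged 5.81 in dorsal and 8.11 in ventral astrocytes, against 5.64 in dorsal and 5.71 in ventral non-astrocytes. As for Epha5, its dorsal astrocyte value was close to those of the non-astrocytes, and the ventral astrocytes stood apart. Such correlations are over arrays that share groups and normalization, and they describe the likeness of the profiles only.

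For Epha7 the most alike genes over 12 arrays were Ggact (0.99), Metrn (0.97) and Ap1b1 (0.97), and after subtraction of the sort means Ggact (0.92), the dystrophin gene Dmd (0.85) and Samd12 (0.85). Ggact averaged 7.35 in dorsal and 7.81 in ventral astrocytes, against 6.79 in dorsal and 6.63 in ventral non-astrocytes, so that its regional order also turned between the sorts. For Ephb1 they were Atp10b (0.99), Klhl2 (0.99) and Hspa4 (0.99), and after subtraction Atp10b (0.91), Hspa2 (0.90) and Trp53inp2 (0.90). Atp10b averaged 6.25 in dorsal and 6.69 in ventral astrocytes, against 7.93 in dorsal and 8.24 in ventral non-astrocytes. For Ephb3 they were the clock gene Per3 (0.99), the amino acid transporter gene Slc1a4 (0.98) and an entry listed only by an Ensembl identifier (0.98), and after subtraction Abca9 (0.87), Islr (0.85) and the sulfate transporter gene Slc26a2 (0.85). In dorsal astrocytes of replicates 1 to 3, after subtraction, Abca9 was at 1.90, 0.41 and -0.44 and Islr at 0.75, 0.19 and -0.11. Ephb3 was at 0.28, 0.13 and -0.01, so that each was highest on the array of replicate 1. How far these correlations rest on that array was not tested. Between the members themselves, with the sort means subtracted, Epha5 correlated at 0.76 with Epha7, 0.71 with Ephb1 and -0.74 with Ephb3 over the 12 arrays. Epha7 correlated at 0.32 with Ephb1 and -0.45 with Ephb3, and Ephb1 at -0.60 with Ephb3. The regional difference in astrocytes, on which the members were chosen, enters these correlations, so they are no separate evidence of likeness.

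**Figure D4:**
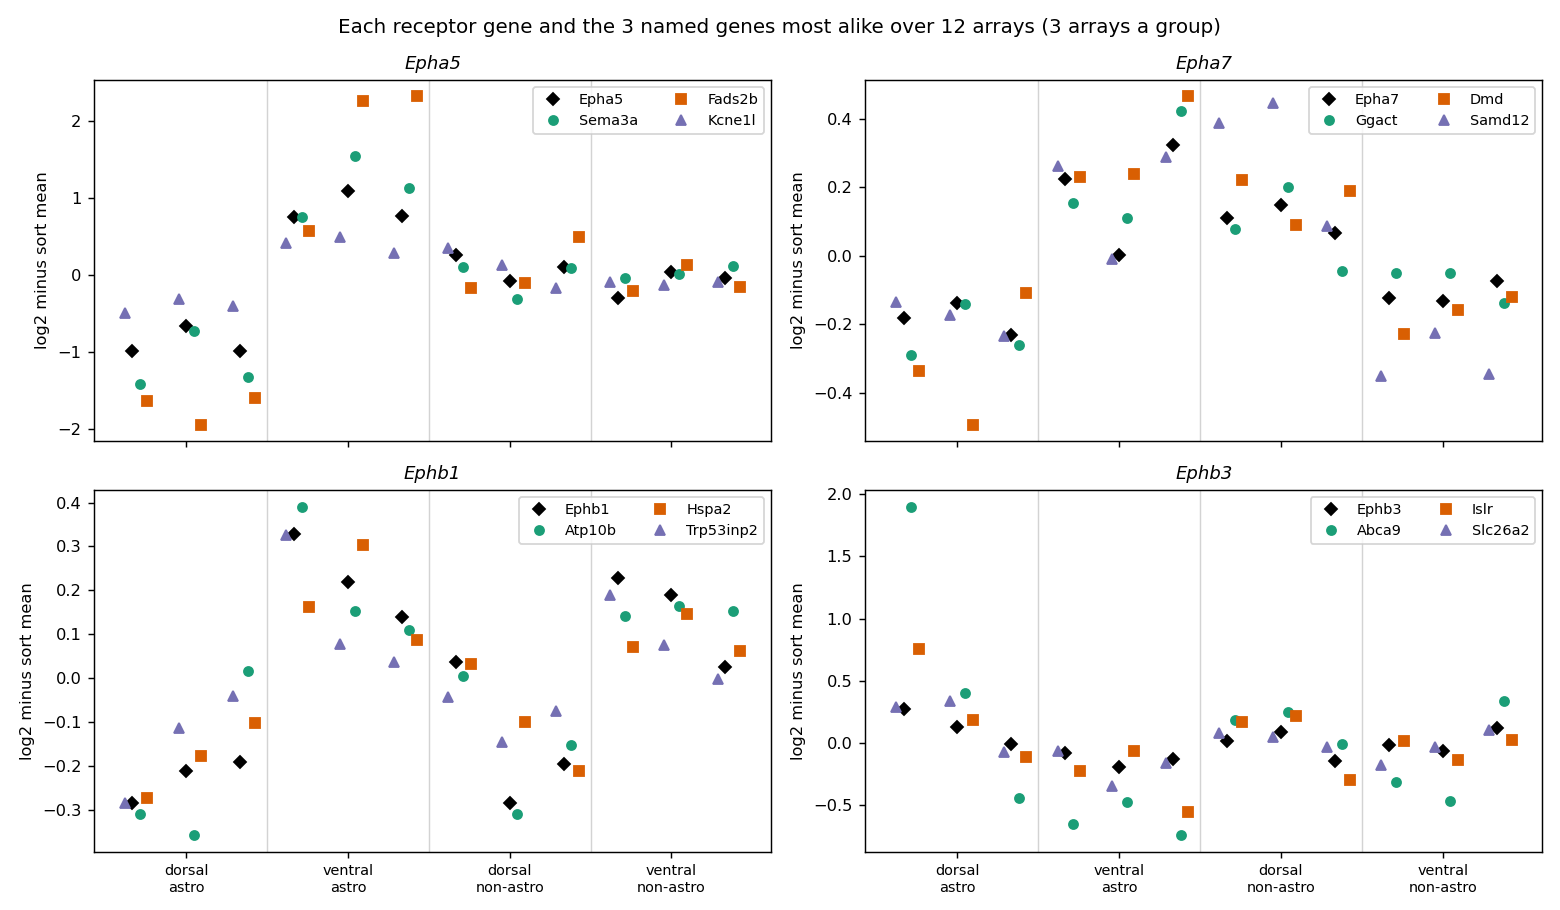
Log2 RMA signal minus the mean of the sort (y axis) on the 12 arrays for each member (diamonds) and the 3 named genes most alike to it after that subtraction. In the Epha5 panel the regional separation is seen in the astrocyte arrays and not in the non-astrocyte arrays, and in the Epha7 panel the non-astrocyte groups separate in the opposite direction to the astrocyte groups.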

How the data were processed

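The submitters' processing notes name oligo, RMA and limma, and their versions and a genome build are not stated. The deposited table of the series holds, for 35556 probe sets, log2 values that the authors obtained by RMA. The authors' 2 further tables, per the file headers, give gene names and the same log2 values beside the authors' linear fold ratio, t score and p-value with its adjusted form, of which only names and log2 values were used here.

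Probe sets were named by matching the 12 values of each listed entry to 6 decimals, and all 5158 and 39 entries matched. Symbols were updated through RefSeq (GRCm38.p6). 476 repeated probe sets were collapsed and 6613 leading, consecutively numbered ones, none of them named, were left out, leaving 28467. limma 3.58.1 (R 4.3.3) fitted 4 group means over 12 arrays, with 8 residual degrees of freedom and a prior of 4.60. Tests were two-sided, and p-values were adjusted after Benjamini-Hochberg across all probe sets, with a threshold of 0.05. Precision is limited by the number of arrays. The arrays are biological replicates per the labels, and p-values rest on the spread between arrays of a group, pooled over the 4 groups.

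Same-numbered dorsal and ventral non-astrocytes deviated together from their group means (r 0.15 to 0.21 over probe sets, against -0.14 to -0.04 for other numbers), so the count with the replicate block is given beside that comparison. The members' intervals and p-values printed above are from the fit without the block. With the block the limma adjusted p in non-astrocytes was 0.53 for Ephb1, 0.81 for Epha7 and at least 0.99 for Epha5 and Ephb3. In astrocytes r was 0.04 to 0.14, against -0.10 to 0.03 for other numbers.

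Named genes were the members, other named Eph receptors and ephrins, the 4 of each context list with the largest sort difference, those most alike to each member, and fixed markers. The members and lists were chosen with earlier results of these data known. Alternatives were the block, fewer arrays, array weights, a signal filter, another variance prior, median scaling, all probe sets and left-out arrays. Figures were made with matplotlib 3.10.9.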

Additional observations from a re-analysis of the deposited data

Results flagged for a closer look

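Epha7 had a dorsal minus ventral log2 difference of -0.37 in astrocytes and of 0.22 in non-astrocytes, with every array of one region on one side of every array of the other in each sort. In astrocytes 12.5% of all probe sets did not overlap between the regions. In non-astrocytes 5.73% did not overlap with the dorsal arrays higher. The value in non-astrocytes was not called (limma adjusted p = 0.86). In those groups 12 of 12 microglia markers were higher dorsally (median 0.47) and 12 of 12 myelin markers higher ventrally (median -0.28). Of the dorsal horn neuron markers 3 of 3 were higher dorsally (median 0.37), and of the astrocyte markers 10 of 14 were higher ventrally (median -0.27). The part of these cell types in the value of Epha7 was not tested. Since the regions did not overlap, the sign was necessarily the same in 3 of 3 replicate numbers within each sort. The difference between the sorts was not tested, since the astrocyte value is one of those on which the gene was chosen.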

How the results depend on the processing

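Over the 23 alternatives the 4 members kept their direction between dorsal and ventral astrocytes, and over 22 between astrocytes and non-astrocytes. Many of these settings, such as the block, the signal filter and another variance prior, cannot change the size of a difference. Leaving out a non-astrocyte array likewise cannot change the difference between dorsal and ventral astrocytes. The members were also chosen on these differences. Epha5 ran from -1.85 to -1.64 between the regions when 1 array was left out, and Epha7 from -0.46 to -0.30. In non-astrocytes 0 of the 4 members passed under any alternative (lowest limma adjusted p = 0.33, for Ephb1). Ephb3, near 0 there at -0.03, changed sign to 0.04 without dorsal non-astrocytes 3, 0.03 without ventral non-astrocytes 3, and ran from -0.114 to 0.093 with a replicate number left out (0.093 without replicate 3).

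The count of 14 probe sets between dorsal and ventral non-astrocytes was 0 with the replicate block, 1 with only the groups compared, 43 with array weights and 0 with the leading probe sets tested too, and 0 to 31 with arrays left out. It moved by over 1.5 times without any single array except ventral astrocytes 1 and 2. The 31 was without dorsal non-astrocytes 3, 8 without dorsal astrocytes 1, 4 without dorsal non-astrocytes 1, 2 without dorsal astrocytes 3 or dorsal non-astrocytes 2, and 0 without each of the others. The count of 97 between dorsal and ventral astrocytes was 27 with only the groups compared, 35 with array weights, 46 with the leading probe sets, 46, 62 and 48 without dorsal astrocytes 1, ventral astrocytes 1 and ventral astrocytes 2, and 8 to 101 over all left-out arrays or replicate numbers. The causes were not tested. The replicate block gave 108 between dorsal and ventral astrocytes and 10551 in place of 10305 between the sorts. Signals near the array medians, as of Ephb1 in astrocytes and of Epha5 and Ephb3 in non-astrocytes, limit how well the size of a difference is known.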
